A study of Rattus norvegicus with 10 samples.

Results

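The activity-induced synaptic effector genes Arc, Npas4, Homer1, Nptx2, Ptgs2, Plk2, Inhba, Rheb, Gadd45b and Rgs2 were followed by RNA sequencing in CA1 tissue of the rat hippocampus. They were chosen by gene name in the table of counts, which gave 10 genes of 32545, and all 10 were among the 15032 genes with enough counts to be tested. The study held 5 groups of 2 libraries each, 10 libraries in all, from hippocampal slices of male Wistar rats aged 5 to 7 weeks. Every slice received 30 min of basal stimulation and was collected 1 h after treatment, and CA1 was then dissected out. The group SKF was given SKF, an agonist of the dopamine D1 and D5 receptors, without any other agent. SKF+Aβ received SKF with amyloid-β, the peptide that accumulates in Alzheimer's disease. The vehicle group, SKF+Aβ+CSP, received both of these with CSP, a carbon nanosphere made from glucose. The TTK21 group, SKF+Aβ+CSP-TTK21, received SKF and Aβ with the same nanosphere carrying TTK21, a small molecule that activates the histone acetyltransferases CBP and p300. The last group, CSP-TTK21 alone, had the loaded nanosphere but neither SKF nor Aβ. The nanospheres were applied at 0.36 µg/ml. Each repeat held 2 slices from 2 biological samples, so a library pools tissue. Untreated slices were not analysed here, so the values compare treated groups with each other and do not measure induction from rest.

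Synaptic activity lets calcium and cAMP signals reach the nucleus, where CREB, SRF and MEF2 recruit CBP and p300 to genes that are switched on within minutes. A first set of these genes encodes transcription factors such as Fos and Egr1. Most of the effector genes described here carry the response to the synapse. Arc promotes removal of AMPA receptors from the membrane, and the secreted pentraxin Nptx2 clusters these receptors. Homer1 is a scaffold of metabotropic glutamate receptors, whose short form is induced by activity and uncouples the long forms. Plk2 is a kinase that lowers synaptic strength after sustained firing. Ptgs2 is cyclooxygenase-2, Inhba is the subunit of the secreted factor activin A, Rheb is the GTPase that activates the growth kinase complex TORC1, and Rgs2 shortens signaling by Gq proteins. Gadd45b links stress kinases and DNA demethylation to activity, and Npas4 is a neuron-specific transcription factor that adjusts inhibitory synapses.

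The promoters of 4 of these genes are shown because Gadd45b was the gene that passed the test between groups and because Plk2, Ptgs2 and Homer1 varied most closely together over the libraries. RefSeq sequences on the rat assembly GRCr8 were available for 9 of the 10 genes, all but Arc, as windows from 250 bases before to 50 bases after the annotated start. The 4 windows lie at chr7:9430669-9430968 on the minus strand for Gadd45b, chr2:43702286-43702585 on the plus strand for Plk2, chr13:64713813-64714112 on the plus strand for Ptgs2 and chr2:26278762-26279061 on the plus strand for Homer1. Capitals mark matches, on either strand, to the cAMP response element TGACGTCA, its core TGACG or the E-box CACGTG.
Gadd45b: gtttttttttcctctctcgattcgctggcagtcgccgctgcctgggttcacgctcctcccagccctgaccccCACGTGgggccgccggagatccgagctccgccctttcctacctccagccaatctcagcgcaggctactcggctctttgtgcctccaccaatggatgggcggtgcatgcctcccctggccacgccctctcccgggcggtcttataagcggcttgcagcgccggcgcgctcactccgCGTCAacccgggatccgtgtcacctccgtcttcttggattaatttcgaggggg
Plk2: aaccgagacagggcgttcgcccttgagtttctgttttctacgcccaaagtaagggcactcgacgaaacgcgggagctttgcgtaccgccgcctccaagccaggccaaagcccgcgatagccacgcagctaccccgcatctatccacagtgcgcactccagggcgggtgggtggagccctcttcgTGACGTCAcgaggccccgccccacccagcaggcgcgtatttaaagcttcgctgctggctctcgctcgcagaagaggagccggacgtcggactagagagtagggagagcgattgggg
Ptgs2: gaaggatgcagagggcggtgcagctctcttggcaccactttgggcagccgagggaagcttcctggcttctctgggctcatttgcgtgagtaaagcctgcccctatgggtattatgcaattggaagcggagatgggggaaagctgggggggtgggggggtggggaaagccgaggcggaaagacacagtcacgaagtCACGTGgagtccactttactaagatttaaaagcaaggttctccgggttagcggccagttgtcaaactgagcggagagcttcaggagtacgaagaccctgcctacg
Homer1: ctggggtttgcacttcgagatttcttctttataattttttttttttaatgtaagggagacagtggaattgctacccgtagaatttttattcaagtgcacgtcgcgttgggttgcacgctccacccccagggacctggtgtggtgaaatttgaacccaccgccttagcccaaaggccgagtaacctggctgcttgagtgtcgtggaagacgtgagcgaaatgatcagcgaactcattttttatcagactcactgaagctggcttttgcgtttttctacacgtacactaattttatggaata

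The full cAMP response element, the site bound by CREB, was found in the Plk2 window, 66 bases before the start. It is present in 1.83% of the 33465 rat windows of the same length. The core TGACG, which the full element contains on both strands, was found in 5 of the 9 windows, those of Nptx2, Plk2, Rheb, Gadd45b and Rgs2, against 21.2% of all windows. The E-box was found in Ptgs2, Rheb and Gadd45b, against 6.42% of all windows, and the CArG box bound by SRF was found in 0 of 9, against 1.64%. The Homer1 window held none of the 4 motifs. These matches describe letters in short windows and do not show that a factor binds there.

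Total counts lay between 6753742 and 8473407 per library, at which 3 counts equal 0.354 to 0.444 CPM. Levels are given as normalized CPM, which are counts divided by the library total scaled with TMM factors, and are compared only within a gene, since counts also depend on transcript length. The counts of the 10 genes lay between 95 and 4006 per library. The 2 libraries of a group differed from each other by a chi-square per degree of freedom of 4.73 to 12.1, more than counting noise, and each was kept as a replicate. Of 5 markers of CA1 pyramidal cells 4 were in the table, summing to 261 to 556 CPM, with Fibcd1 at 0 counts in every library. Summed dentate granule markers reached 197 to 300.3 CPM, and choroid plexus markers stayed between 0.285 and 4.60 CPM. In tissue of mixed cells, fewer cells of a type and less RNA per cell cannot be told apart.

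Over the 5 groups, 0 of the 10 genes passed an adjusted p of 0.05 in edgeR's quasi-likelihood test, where 0.00665% of all tested genes passed. DESeq2 passed 1 of them, Gadd45b, among 407 of the 8329 genes to which it gave an adjusted p, and limma passed 0. Adjusted p-values ran from 0.204 for Gadd45b to 0.753 for Npas4. An unadjusted p under 0.05 was reached by 4 genes, Gadd45b at 0.0024, Arc at 0.0215, Ptgs2 at 0.0340 and Plk2 at 0.0353, beside 14.3% of all genes. In the 8 comparisons of pairs of groups, Gadd45b in SKF+Aβ against SKF was the one result that passed. The plot of levels by group shows every library of every gene.

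**Figure D1:**
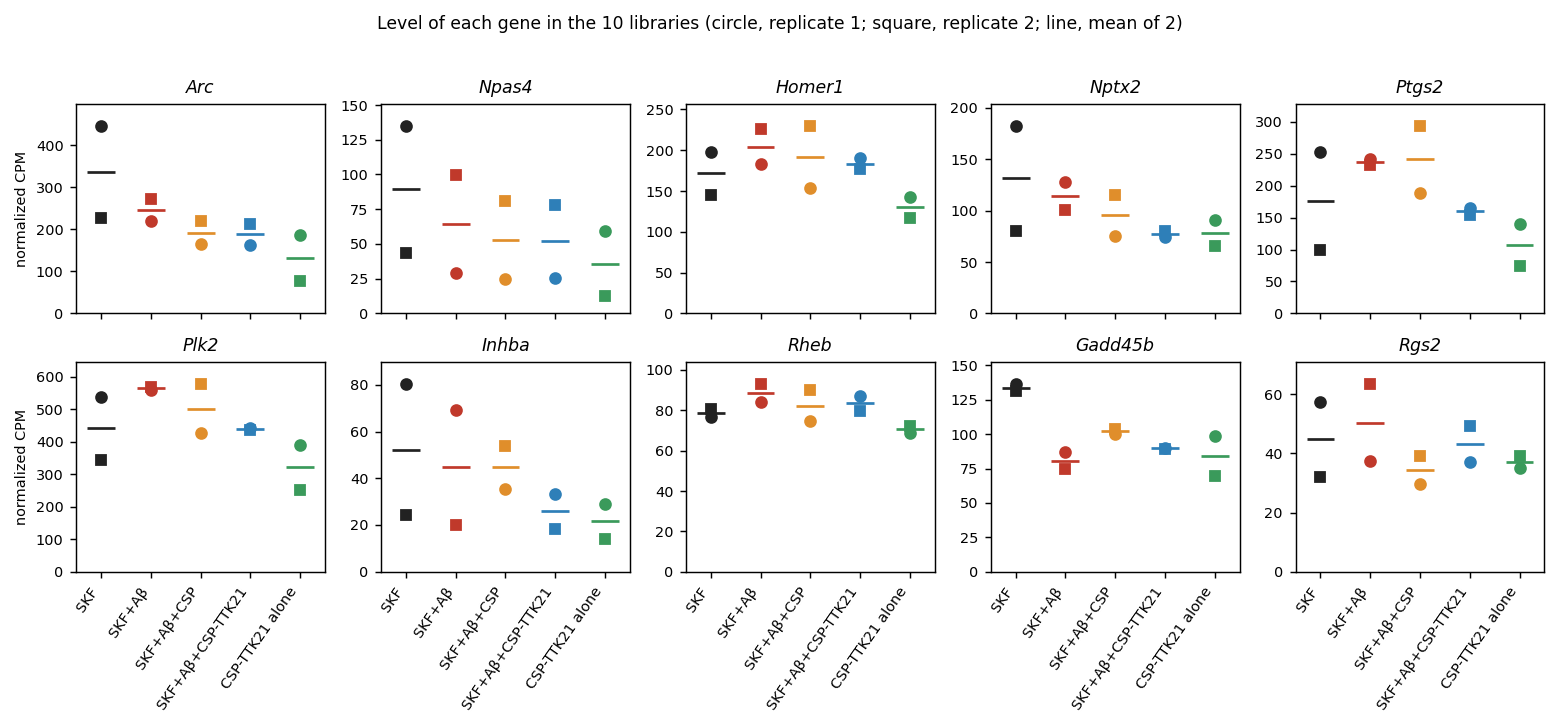
Normalized CPM of the 10 genes, 1 panel a gene with its own axis from 0, with a circle for replicate 1, a square for replicate 2 and a line at the mean of the 2 libraries in each of the 5 groups. Gadd45b is the gene whose 2 SKF libraries lie above all 8 other libraries, while the 2 libraries of Npas4 lie over 3-fold apart in every group.

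Gadd45b (ENSRNOG00000019822), an activity- and stress-induced member of the Gadd45 family, was lower with Aβ. Its level was 136 and 132 CPM in the 2 SKF libraries and 87.2 and 74.5 in SKF+Aβ. It was 100.3 and 104 in the vehicle group, 90 and 89.5 in the TTK21 group, and 99.0 and 69.9 in CSP-TTK21 alone. Both SKF libraries stood above the other 8, and SKF+Aβ lay below the vehicle and TTK21 groups without overlap. Among all tested genes, SKF had the highest group mean for 30.08% and the lowest for 29.9%. The mean fell from 133.9 ± 3.21 (SD, n = 2) to 80.8 ± 8.94 (SD, n = 2) with Aβ, a log2 fold change of -0.73 with a standard error of 0.16. The adjusted p was 0.0422, and 2.08% of all tested genes passed in this comparison. The call did not reach the log2 fold change limit of 1.5, which 0.146% of all genes passed together with the adjusted p.

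The fall of Gadd45b kept its direction in each alternative tried, between -0.86 and -0.64, while its call did not hold in every fit. The adjusted p was 0.0881 when only the 4 libraries compared were fitted, and between 0.0672 and 0.147 when either SKF, either SKF+Aβ or either vehicle library was left out. A group left with 1 library was assumed to vary like the others. Between the same 2 groups the oligodendrocyte markers Mbp, Mag and Mog had log2 fold changes of -0.80, -0.70 and -0.32 with adjusted p of 0.0745, 0.125 and 0.407, none past the test. The 3 excitatory neuron markers summed to 3176 to 3754 CPM in SKF and 2754 to 3134 in SKF+Aβ, and the 3 meningeal markers from 9.54 to 12.7 and from 15.2 to 27.9. None of these markers was at 0, and the summed markers of 8 further cell types overlapped between the 2 groups. The part of these cells in the Gadd45b result was not tested.

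Against SKF, the level of Gadd45b was also lower in the other groups without passing the test. The log2 fold change was -0.39 ± 0.16 (SE) in the vehicle group with an adjusted p of 0.197. It was -0.58 ± 0.16 in the TTK21 group with an adjusted p of 0.114, which DESeq2 gave as 0.0344. It was -0.67 ± 0.16 in CSP-TTK21 alone with an adjusted p of 0.633, and ran from -0.95 without replicate 1 of that group to -0.43 without its replicate 2. Both nanosphere groups with Aβ lay below both SKF libraries. The vehicle group lay above SKF+Aβ by 0.34 ± 0.16 on the log2 scale with an adjusted p of 1.00, and the TTK21 group by 0.15 ± 0.16 with an adjusted p of 0.859. In each of these comparisons with SKF+Aβ the libraries did not overlap, beside 14.3% of all genes above with the vehicle and 18.2% with TTK21. The comparisons share the SKF or the SKF+Aβ libraries.

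Arc (ENSRNOG00000043465), the immediate-early gene that drives AMPA receptor endocytosis, had its highest level in SKF. It was 445 and 226 CPM in SKF, 219.9 and 271 in SKF+Aβ, 164 and 220.2 in the vehicle group, 162 and 213 in the TTK21 group, and 187 and 76.3 in CSP-TTK21 alone. The group means descended in that order, from 335.6 ± 154.5 (SD, n = 2) to 131.8 ± 78.4 (SD, n = 2), but each neighbour in the order overlapped with the next. Both SKF libraries lay above both libraries of the vehicle group, the TTK21 group and CSP-TTK21 alone. The log2 fold change against SKF was -0.81 ± 0.35 (SE) in the vehicle group with an adjusted p of 0.232, and -0.84 ± 0.35 in the TTK21 group with an adjusted p of 0.214. CSP-TTK21 alone differed most, by -1.35 ± 0.36 with an adjusted p of 0.633. Without SKF replicate 1 the 3 values were -0.25, -0.29 and -0.79, and the lowest values with another library left out were -1.21, -1.24 and -2.15.

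Npas4 (ENSRNOG00000020009), whose transcript depends on neuronal firing, varied more between libraries of 1 group than between groups. It was 135 and 43.6 CPM in SKF, 29.1 and 99.4 in SKF+Aβ, 25.1 and 80.9 in the vehicle group, 25.8 and 78.3 in the TTK21 group, and 59.1 and 12.7 in CSP-TTK21 alone. The 2 libraries of a group differed by 3.03-fold to 4.65-fold in every group, and all 5 groups overlapped with their neighbours in the order. The group means of 89.2 ± 64.4 (SD, n = 2) in SKF and 35.9 ± 32.8 (SD, n = 2) in CSP-TTK21 alone are the highest and the lowest. Their log2 fold change was -1.32 ± 0.76 (SE) with an adjusted p of 0.674, and its approximate 95% interval ran from -2.80 to 0.17. With 1 library left out the value ran from -2.83 without CSP-TTK21 alone replicate 1 to -0.29 without SKF replicate 1.

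Ptgs2 and Plk2 followed nearly the same course. Ptgs2 (ENSRNOG00000002525) was 253 and 99.9 CPM in SKF, 242 and 232 in SKF+Aβ, 189 and 293 in the vehicle group, 165 and 154 in the TTK21 group, and 139 and 74.5 in CSP-TTK21 alone. Plk2 (ENSRNOG00000011951) was 538 and 343 CPM in SKF, 559.6 and 568 in SKF+Aβ, 426 and 576 in the vehicle group, 443 and 436 in the TTK21 group, and 391 and 252 in CSP-TTK21 alone. In both genes the libraries of the TTK21 group agreed closely with each other and lay below both SKF+Aβ libraries and above both libraries of CSP-TTK21 alone, while the SKF libraries spanned most of the range. The log2 fold change of the TTK21 group against SKF+Aβ was -0.57 ± 0.35 (SE) for Ptgs2 with an adjusted p of 0.768, and -0.36 ± 0.22 for Plk2 with an adjusted p of 0.773. CSP-TTK21 alone against SKF gave -0.73 ± 0.35 for Ptgs2 and -0.45 ± 0.22 for Plk2, each with an adjusted p of 0.649. Without SKF replicate 1 that value turned to 0.09 for Ptgs2 and became -0.10 for Plk2, and the lowest values with another library left out were -1.26 and -0.82.

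Homer1 (ENSRNOG00000047014) was lowest in CSP-TTK21 alone. It was 198 and 146 CPM in SKF, 183 and 226 in SKF+Aβ, 154 and 229.5 in the vehicle group, 190.5 and 177 in the TTK21 group, and 143 and 117 in CSP-TTK21 alone. The CSP-TTK21 alone libraries lay below the other 8, which overlapped with each other from group to group. The TTK21 group stood above CSP-TTK21 alone by 0.50 ± 0.20 (SE) on the log2 scale with an unadjusted p of 0.0262 and an adjusted p of 0.963. Counts per gene do not separate the short, activity-induced form of Homer1 from its long forms.

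Nptx2 (ENSRNOG00000001006), which recruits AMPA receptors to synapses, was 182 and 80.5 CPM in SKF, 128 and 101 in SKF+Aβ, 75.4 and 115 in the vehicle group, 73.9 and 80.3 in the TTK21 group, and 91.2 and 65.5 in CSP-TTK21 alone. Inhba (ENSRNOG00000014320), the activin subunit, was 80.2 and 24.2 CPM in SKF, 69.1 and 20.1 in SKF+Aβ, 35.6 and 53.8 in the vehicle group, 33.4 and 18.4 in the TTK21 group, and 28.8 and 14.2 in CSP-TTK21 alone. Both had their highest library in SKF replicate 1, and the SKF replicate 2 value lay within or near the range of the other groups. The log2 fold change of Nptx2 against SKF was -0.77 ± 0.30 (SE) in the TTK21 group with an adjusted p of 0.196 and -0.75 ± 0.30 in CSP-TTK21 alone with an adjusted p of 0.633. Without SKF replicate 1 these were -0.08 and -0.05, and the lowest values with another library left out were -1.24 and -1.22. The -1.24, without SKF replicate 2, had an adjusted p of 0.0302, but SKF was then 1 library, assumed to vary like the other groups. For Inhba, CSP-TTK21 alone against SKF gave -1.28 ± 0.57 with an adjusted p of 0.633, and ran from -1.90 to -0.18 with 1 library left out, the last without SKF replicate 1.

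Rheb (ENSRNOG00000050578), which is expressed at rest as well as after activity, had the narrowest range of the 10 genes. It was 76.7 and 80.6 CPM in SKF, 84.1 and 92.8 in SKF+Aβ, 74.5 and 89.8 in the vehicle group, 87.3 and 79.7 in the TTK21 group, and 68.9 and 72.3 in CSP-TTK21 alone. The highest library was 1.35-fold the lowest, and CSP-TTK21 alone lay below the other 8 libraries. The TTK21 group stood above CSP-TTK21 alone by 0.24 ± 0.14 (SE) on the log2 scale with an adjusted p of 0.963. Rgs2 (ENSRNOG00000003687) was 57.4 and 32.2 CPM in SKF, 37.6 and 63.3 in SKF+Aβ, 29.8 and 39.3 in the vehicle group, 37.2 and 49.2 in the TTK21 group, and 35.0 and 39.0 in CSP-TTK21 alone. All its groups overlapped with their neighbours in the order of means, and its largest difference was -0.55 ± 0.28 in the vehicle group against SKF+Aβ with an adjusted p of 1.00. With 1 library left out that value ran from -0.88 without SKF+Aβ replicate 1 to -0.12 without SKF+Aβ replicate 2.

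**Figure D2:**
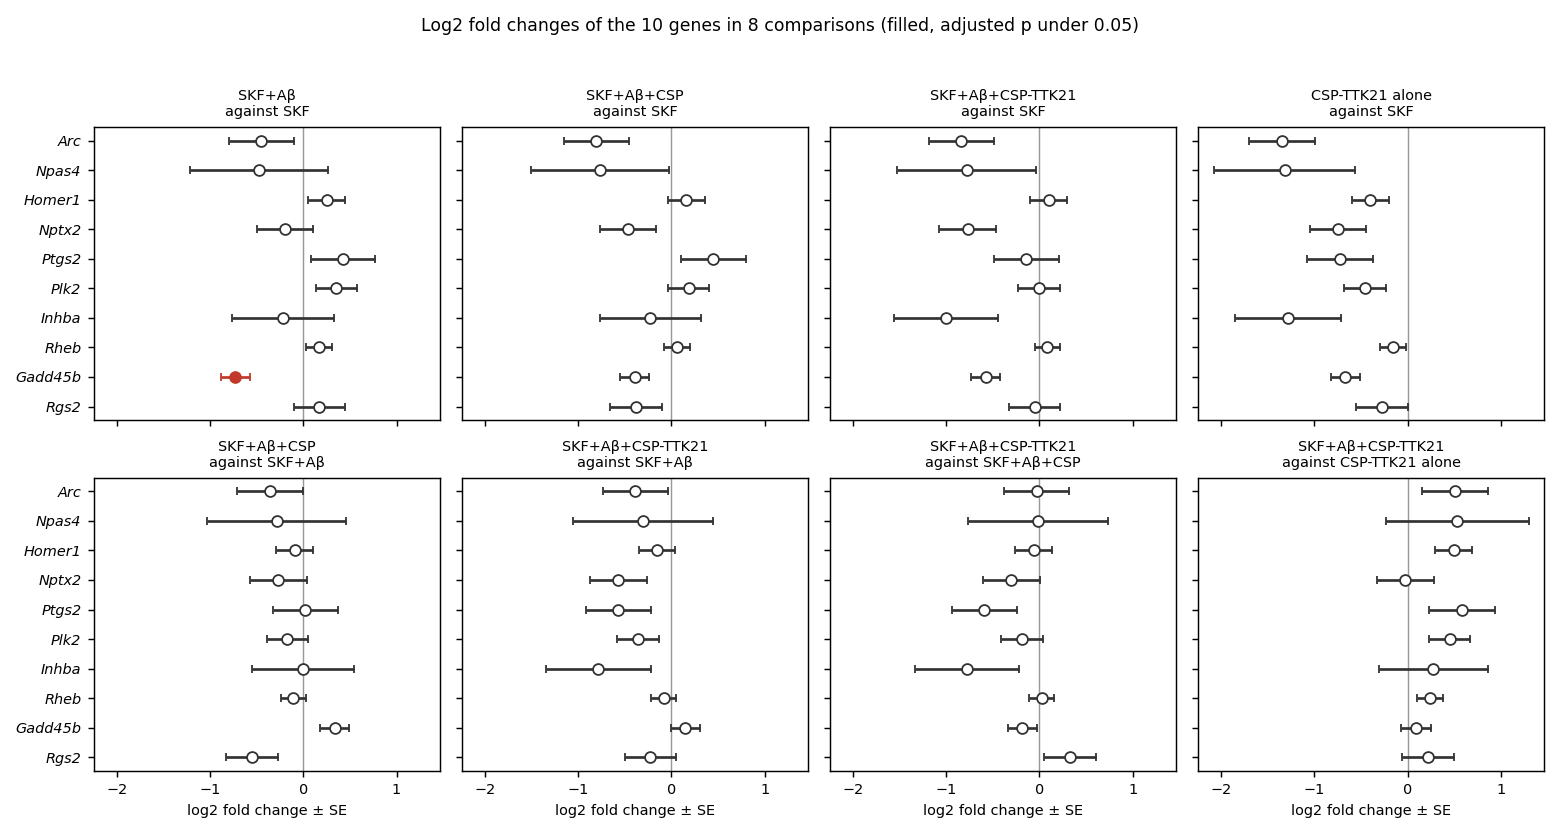
Log2 fold changes of the 10 genes with standard errors (bars) in the 8 comparisons between groups, 1 panel a comparison, with 0 as a vertical line. The 1 filled point is Gadd45b in SKF+Aβ against SKF at -0.73, the value with an adjusted p under 0.05, and in CSP-TTK21 alone against SKF all 10 points lie left of 0.

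Aβ against SKF split the genes evenly, with 5 lower and 5 higher on the fitted log2 scale. The genes higher with Aβ were Homer1, Ptgs2, Plk2, Rheb and Rgs2, and those lower were Arc, Npas4, Nptx2, Inhba and Gadd45b. Their median log2 fold change was -0.01, beside -0.00 over all tested genes. The libraries did not overlap for Gadd45b, which was below SKF, and for Plk2 and Rheb, which were above it, beside 24.3% of all genes below and 25.2% above, where 50.1% of all genes were lower. Plk2 differed by 0.36 ± 0.22 (SE) with an adjusted p of 0.357, and Rheb by 0.17 ± 0.14 with an adjusted p of 0.485. Apart from Gadd45b, 0 genes reached an unadjusted p under 0.05 here, where 22.8% of all genes did, and 0 of the 10 did so with a log2 fold change beyond 1, where 2.88% did.

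The vehicle and the loaded nanosphere with SKF and Aβ gave no gene past the adjusted p in edgeR. Against SKF, the vehicle group had 6 of 10 genes lower beside 49.7% of all genes, a median of -0.30 and 2 genes at an unadjusted p under 0.05, Arc and Gadd45b. DESeq2 and limma passed 0 of them, and 0.02% of all genes passed in edgeR and 19.3% reached the unadjusted p. The TTK21 group had 8 of 10 lower than SKF beside 51.3% of all genes, a median of -0.36 and 3 genes at an unadjusted p under 0.05, Arc, Nptx2 and Gadd45b, beside 19.6% of all genes. In edgeR 0.00665% of all genes passed. DESeq2 passed 1 of the 10, Gadd45b, among 355 of the 7746 genes to which it gave an adjusted p, and limma passed 0. Arc and Gadd45b lay below SKF without overlap in the vehicle group, beside 25.3% of all genes, and these 2 with Nptx2 in the TTK21 group, beside 24.5%. The median over all genes was 0.00 and -0.01 in these comparisons. Summed cell markers also differed without overlap. In the vehicle group excitatory neuron markers, at 2579 to 2937 CPM, and CA3 markers, at 92.7 to 100.1, lay below SKF with 3176 to 3754 and 115 to 125. In the TTK21 group CA3 markers, at 99.2 to 112, and Flt1, the only endothelial marker with counts, at 34.2 to 35.3, lay below SKF, which had 45.8 to 75.5 for Flt1. There interneuron markers at 494 to 500.6 CPM, dentate granule markers at 243 to 278 and meningeal markers at 12.8 to 21.2 lay above SKF with 391.2 to 392.4, 197 to 239 and 9.54 to 12.7. The part of these cells was not tested.

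The comparison of the TTK21 group with the vehicle group sets TTK21 apart from its vehicle. Here 8 of the 10 genes were lower with TTK21, where 48.9% of all genes were, with a median of -0.12 beside 0.01 over all genes. The 2 libraries of each group did not overlap for Ptgs2, Inhba and Gadd45b, which were lower with TTK21, where 22.8% of all genes lay below without overlap. Their log2 fold changes were -0.59 ± 0.35 (SE), -0.78 ± 0.56 and -0.18 ± 0.16, with adjusted p of 0.605, 0.671 and 0.719. Arc and Npas4 were at -0.03 and -0.02, with approximate 95% intervals from -0.72 to 0.65 and from -1.49 to 1.45, which include changes of 1.5-fold in either direction. In edgeR 0 of the 10 genes passed and 0 reached an unadjusted p under 0.05, beside 0% and 8.78% of all genes, and DESeq2 and limma passed 0. Markers of 6 cell types differed without overlap between the groups. Flt1, which stands for endothelial cells since Cldn5 was at 0 in every library and Pecam1 was not matched, was at 34.2 to 35.3 CPM with TTK21 and 60.7 to 81.6 with the vehicle. The other 5 were higher with TTK21. Excitatory neuron markers summed to 3201 to 3455 against 2579 to 2937 CPM, astrocyte markers to 2631 to 2827 against 2189 to 2217, and interneuron markers to 494 to 500.6 against 388 to 432. Microglia markers summed to 70.2 to 105 against 48.5 to 58.4 CPM, and dentate granule markers to 243 to 278 against 231 to 242. The part of these cells was not tested.

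Against SKF+Aβ, the TTK21 group had 9 of 10 genes lower, all but Gadd45b, beside 48.1% of all genes, with a median of -0.33 beside 0.01 over all genes. Arc, Nptx2, Ptgs2 and Plk2 lay below SKF+Aβ without overlap, beside 17.7% of all genes, and Gadd45b lay above it without overlap, beside 18.2%. The vehicle group had 8 of 10 lower than SKF+Aβ, beside 51.6% of all genes, with a median of -0.14. In both comparisons edgeR, DESeq2 and limma passed 0 of the 10 genes and 0% of all genes passed in edgeR. An unadjusted p under 0.05 was reached by 0 of the 10, where 6.59% of all genes reached it with CSP-TTK21 and 2.18% with CSP. Against SKF+Aβ, the TTK21 group had higher excitatory neuron markers, at 3201 to 3455 against 2754 to 3134 CPM, higher astrocyte markers, at 2631 to 2827 against 2100 to 2593, and lower Flt1, at 34.2 to 35.3 against 48.4 to 63.0, each without overlap. The vehicle group had choroid plexus markers at 2.25 to 2.35 CPM against 2.09 to 2.10, and the oligodendrocyte sum is not reported here. The part of these cells was not tested.

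CSP-TTK21 alone had the lowest group mean for 7 of the 10 genes, where 11.25% of all genes had their lowest mean in that group. Its 10 log2 fold changes against SKF were all negative, with a median of -0.70 beside 0.00 over all genes, where 49.6% of all genes were lower. The genes vary together, so the 10 signs are not 10 separate observations. In edgeR 0 of the 10 genes passed, beside 0% of all genes, and DESeq2 and limma passed 0. An unadjusted p under 0.05 was reached by 4 genes, Arc, Nptx2, Inhba and Gadd45b, beside 7.78% of all genes in either direction and 3.63% lower. With a log2 fold change beyond 1 it was reached by 2 of them, Arc and Inhba, beside 1.28%. Arc, Homer1, Rheb and Gadd45b lay below SKF without overlap, beside 17.3% of all genes. The groups differ both in SKF and in the nanosphere, so the 2 agents cannot be told apart here. The 3 CA3 markers summed to 96.2 to 97.2 CPM in CSP-TTK21 alone, below their 115 to 125 in SKF, and the oligodendrocyte sum is not reported here. Interneuron markers at 414 to 457 CPM, meningeal markers at 12.8 to 15.1 and choroid plexus markers at 2.67 to 3.34 lay above their 391.2 to 392.4, 9.54 to 12.7 and 0.968 to 2.54 in SKF. The part of these cells was not tested.

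Replicate 2 of CSP-TTK21 alone was the lowest of all 10 libraries for 8 genes, beside 8.04% of all genes. SKF replicate 1 was the highest library for 5 genes, beside 17.57% of all genes. Left out in turn, SKF replicate 1 reduced the number of genes lower than SKF from 10 to 8, and CSP-TTK21 alone replicate 2 reduced the number with their lowest mean in that group from 7 to 5. With SKF and Aβ beside the loaded nanosphere, in the TTK21 group, 9 of 10 genes were above CSP-TTK21 alone, all but Nptx2, where 49.3% of all genes were lower, with a median of 0.36 beside 0.00 over all genes, and Homer1, Ptgs2, Plk2 and Rheb lay above it without overlap, beside 17.6% of all genes. In edgeR 0 of the 10 passed, beside 0% of all genes, DESeq2 and limma passed 0, and Homer1 was the 1 gene with an unadjusted p under 0.05, which 4.18% of all genes reached. The TTK21 group lay above CSP-TTK21 alone without overlap in markers of excitatory neurons, interneurons, dentate granule cells and CA3, and below it in Flt1, and the part of these cells was not tested.

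**Figure D3:**
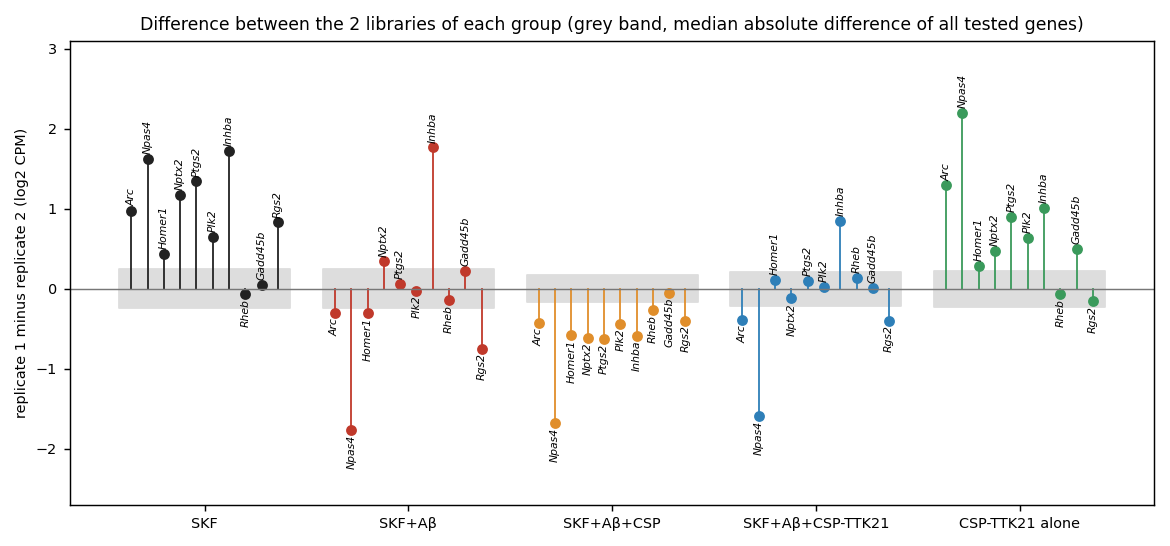
Difference between replicate 1 and replicate 2 of each group on the log2 CPM scale for the 10 genes, with the median absolute difference of all tested genes as a grey band. In SKF 9 of the 10 points lie above 0, and Npas4 lies beyond 1.5 in every group, upward in SKF and CSP-TTK21 alone and downward in the other 3.

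The spread between libraries of the same treatment differed between these genes and between groups. In SKF the median absolute log2 difference between the 2 libraries was 0.90 over the 10 genes and 0.24 over all genes, with replicate 1 higher for 9 genes beside 48.84% of all genes. In the vehicle group it was 0.51 beside 0.17, with replicate 2 higher for all 10 genes beside 49.32%. In CSP-TTK21 alone it was 0.57 beside 0.22, with replicate 1 higher for 8 genes beside 48.16%. SKF+Aβ had 0.30 beside 0.24, and the TTK21 group, at 0.13 beside 0.21, was below all genes. Taken over the 5 groups, the root mean square difference placed Npas4 at percentile 99.76 of all tested genes, Inhba at 99.07, Arc at 92.58 and Ptgs2 at 92.47. Gadd45b at 38.28 and Rheb at 12.57 lay below the median gene. The sources used here do not say which animals or days a replicate number stands for.

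The genes followed each other over the 10 libraries to different degrees, which is given as a description, since the libraries share groups and a common scaling. Ptgs2 and Plk2 had a Pearson r of log2 CPM of 0.97 and a Spearman rho of 0.92. Homer1 joined them, with an r of 0.93 and a rho of 0.95 with Plk2 and an r of 0.89 and a rho of 0.88 with Ptgs2. Arc and Npas4 had an r of 0.87 and a rho of 0.86, and Nptx2 had an r of 0.82 with Arc and 0.82 with Inhba, with rho of 0.83 and 0.67. Gadd45b stood apart from the cluster of Plk2, Ptgs2 and Homer1, with r of 0.19, 0.20 and 0.11 and rho of 0.06, 0.31 and 0.20. Of the 3 promoters of that cluster printed above, the Plk2 window holds the full cAMP response element, the Ptgs2 window holds an E-box and the Homer1 window holds neither.

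**Figure D4:**
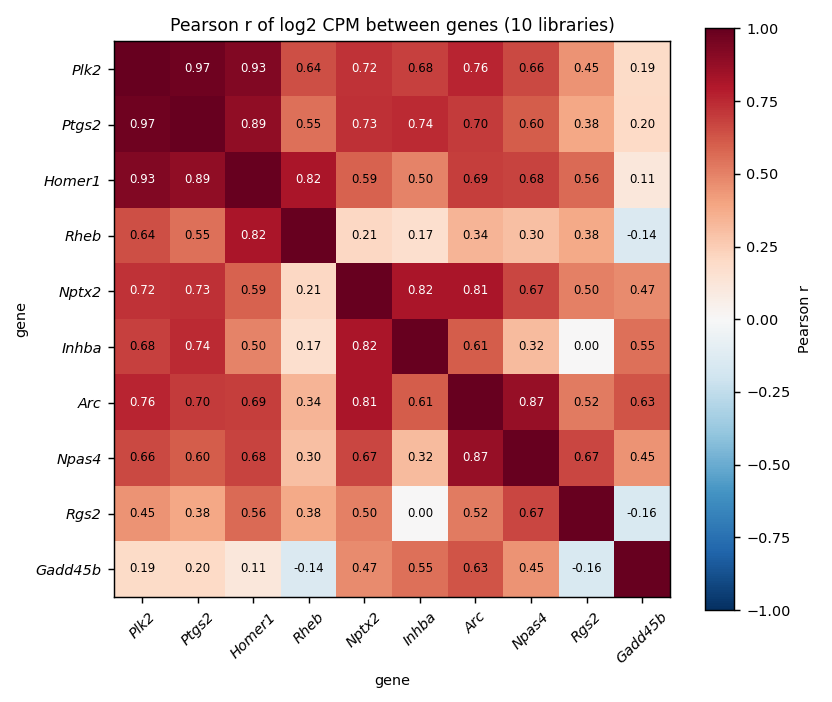
Pearson r of log2 CPM over the 10 libraries for each pair of the 10 genes, coloured from -1 to 1. Plk2, Ptgs2 and Homer1 form the block with r from 0.89 to 0.97, and Gadd45b has its lowest values with Rgs2 and Rheb, at -0.16 and -0.14.

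Among all tested genes, those whose pattern over the 10 libraries was most like Arc were Nrxn3, Arl4d and Dnajb5, with r from 0.94 to 0.96. For Npas4 they were AABR07056576.1, Aars and Slco3a1 at 0.92 to 0.93, and for Nptx2 Ppp1r13b, Pde4dip and Shkbp1 at 0.93 to 0.95. Plk2 was the gene most like both Ptgs2 and Homer1, followed for Ptgs2 by Mast4 at 0.95 and Nrd1 at 0.93, and for Homer1 by Hsph1 at 0.92 and Nrd1 at 0.91. Plk2 itself was followed by Ptgs2, by Mast4 at 0.94 and by Dusp4 at 0.93. Inhba was most like Spry2, P3h2 and Fbl at 0.94 to 0.95, and Rheb most like Tmem200a, Ctr9 and Ppm1e at 0.93 to 0.97. Gadd45b was most like Eml2, AABR07010030.1 and RGD1304694 at 0.95 to 0.97, and Rgs2 most like Atp2b3, Scg2 and Epb41l3 at 0.90 to 0.94. These are the highest values out of all tested genes, over 10 libraries.

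The transcription factors that activity induces beside these genes had lower fitted values in CSP-TTK21 alone than in SKF, without an adjusted p under 0.05. Of a list of 17 factors, 16 were in the table and tested. Over the 5 groups 0 passed the adjusted p, beside 0.00665% of all genes, and 10 reached an unadjusted p under 0.05, beside 14.3%, led by Maff, Junb and Fos. Against SKF, CSP-TTK21 alone had 16 of 16 lower beside 49.6% of all genes, with a median of -0.75. Of these, 14 reached an unadjusted p under 0.05, beside 3.63% of all genes lower at that p and 7.78% in either direction. The number was 9 without SKF replicate 1 and 6 without CSP-TTK21 alone replicate 2. The vehicle group also had 16 of 16 lower than SKF, beside 49.7% of all genes, with a median of -0.54. There 8 reached an unadjusted p under 0.05, beside 19.3% of all genes in either direction. The TTK21 group had 12 of 16 lower beside 51.3%, with a median of -0.27 and 2 at that p, beside 19.6% in either direction. Fos, a component of AP-1, had a mean of 544 CPM in SKF and 244 in CSP-TTK21 alone. Junb was 275 and 237 CPM in SKF and 137 and 92.6 in CSP-TTK21 alone. For both, each SKF library lay above each CSP-TTK21 alone library, as for 17.3% of all genes, and the adjusted p was 0.633.

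In SKF+Aβ 15 of 16 were lower than SKF, where 50.1% of all genes were, with a median of -0.38. An unadjusted p under 0.05 was reached by 4, beside 22.8% of all genes in either direction. Maff, a small Maf factor, passed with a log2 fold change of -0.73 ± 0.16 (SE) and an adjusted p of 0.0416, where 2.08% of all genes passed. Maff was 104.5 and 103 CPM in SKF and 65.0 and 60.2 in SKF+Aβ. Its mean was 72.1 in the vehicle group, 80.3 in the TTK21 group and 71.3 in CSP-TTK21 alone. In the TTK21 group against the vehicle group, 15 of 16 factors were higher, with a median of 0.36. Of the 10 effector genes 8 were lower there, with a median of -0.12, and 48.9% of all genes were lower. Fos was 308 and 323 CPM in the vehicle group and 427 and 528 in the TTK21 group. Of these factors 2 reached an unadjusted p under 0.05 in that comparison, beside 3.17% of all genes higher at that p, and 0 passed the adjusted p. The difference between the 2 lists was not tested, and Npas4, among the effector genes, is itself a transcription factor.

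**Figure D5:**
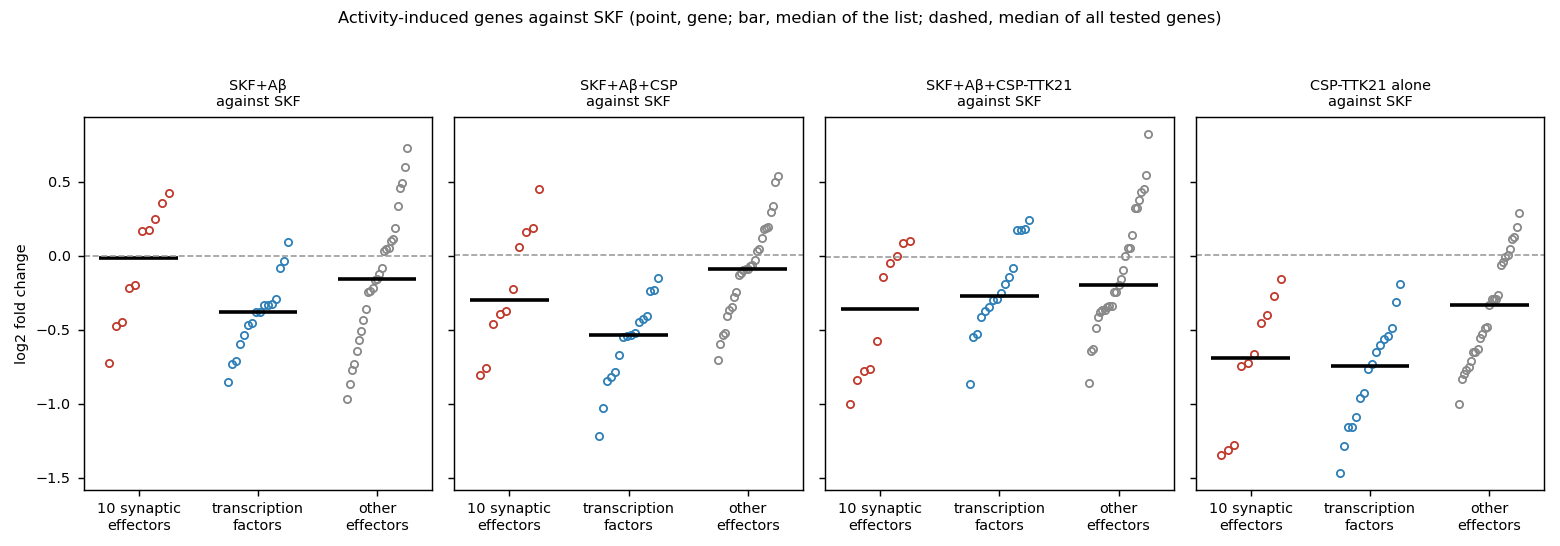
Log2 fold changes against SKF of the 10 synaptic effector genes, 16 activity-induced transcription factors and 27 other activity-induced effectors, 1 point a gene, with the list's median as a bar and the median of all tested genes as a dashed line. All 16 factors and all 10 synaptic effectors lie below 0 in CSP-TTK21 alone, with medians of -0.75 and -0.70, and the synaptic effectors lie on both sides of 0 in SKF+Aβ.

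Of 28 other activity-induced effectors, 27 were tested and 3 passed in SKF+Aβ against SKF, where 2.08% of all genes passed. Pim1, a survival kinase, fell by 0.97 on the log2 scale with an adjusted p of 0.0491, and Midn fell by 0.73 with an adjusted p of 0.0376. Group means of Pim1 were 67.4 CPM in SKF and 34.4 in SKF+Aβ. They were 41.3 in the vehicle group, 37.1 in the TTK21 group and 37.9 in CSP-TTK21 alone. For Midn they were 191.5, 115.2, 126.7, 123.6 and 136.9 in the same order. Pcsk1, a convertase of neuropeptide precursors, rose by 0.73 with an adjusted p of 0.0450. The list's median was -0.16 in SKF+Aβ against SKF, with 16 of 27 lower beside 50.1% of all genes. It was -0.34 in CSP-TTK21 alone against SKF, with 21 of 27 lower beside 49.6%. Sik1, a kinase that restrains CREB coactivators, led the list over the 5 groups with an unadjusted p of 0.0011 and an adjusted p of 0.189. It was 129 and 122 CPM in SKF and 78.8 and 69.6 in CSP-TTK21 alone, and its other libraries lay between these.

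Among the partners of Arc and Nptx2 at AMPA receptors, 14 genes were tested and 1 passed, in SKF+Aβ against SKF, where 2.08% of all genes passed. Gria2, the subunit that makes these receptors impermeable to calcium, was 753 and 852 CPM in SKF and 1353 and 1305 in SKF+Aβ. It rose by 0.73 ± 0.14 (SE) on the log2 scale with an adjusted p of 0.0355. Gria3 had a log2 fold change of 0.58 with an adjusted p of 0.0535, and Sh3gl1, which encodes an endophilin, was the third of the list over the 5 groups. The median of the list was -0.06, with 9 of 14 genes lower beside 50.1% of all genes. Of 9 relatives and partners of Gadd45b, Gadd45a was lower in SKF+Aβ than in SKF, by 0.76 on the log2 scale with an adjusted p of 0.0422. Gadd45a was 76.9 and 62.2 CPM in SKF and 46.1 and 35.8 in SKF+Aβ. Its level was 55.1 and 49.7 in the vehicle group and 46.3 and 42.9 in the TTK21 group. In CSP-TTK21 alone, without Aβ, it was 46.1 and 39.8. Gadd45g, the remaining family member, had a log2 fold change of -0.84 with an adjusted p of 0.0948, and Tet2 came next in the list over the 5 groups. The group mean of Gadd45g was 75.8 CPM in SKF and 42.5 in SKF+Aβ. It was 49.6 in the vehicle group, 43.9 in the TTK21 group and 38.0 in CSP-TTK21 alone. The calls of Maff, Pim1, Midn, Pcsk1, Gria2 and Gadd45a kept their direction in each alternative, but 0 of these 6 passed in the fit of the 4 libraries or without SKF replicate 1, either SKF+Aβ library or either vehicle library, and 3 passed without SKF replicate 2.

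In the other 7 lists 0 genes passed in any of the 8 comparisons or over the 5 groups in edgeR, and between 0 and 3 genes a list reached an unadjusted p under 0.05 over the groups, where 14.3% of all genes did. They held 10 Npas4 partners and promoter factors led by Srf, Mef2d and Mef2c, 10 Homer partners led by Grm5, Shank1 and Shank3, and 14 genes of the prostaglandin pathway led by Tbxas1, Ptges and Ptgds. Of the activin pathway 11 genes were tested, led by Acvr2a, Acvr2b and Bambi, and of the polo-like kinases and Plk2 substrates also 11, among them Plk4 and Plk3. Of the Rheb and TORC1 pathway 12 were tested, led by Akt1s1, Eif4ebp1 and Rps6kb1, and of the RGS family with Gq or Gi signaling 14, led by Rgs17, Plcb1 and Rgs16. The lowest unadjusted p among them was that of Akt1s1, an inhibitor of TORC1, at 0.0074 with an adjusted p of 0.235. Akt1s1 had group means of 46.5 CPM in SKF, 28.3 in SKF+Aβ, 28.8 in the vehicle group, 34.7 in the TTK21 group and 39.0 in CSP-TTK21 alone. Crebbp and Ep300, which encode the targets of TTK21, were tested among the promoter factors and passed in 0 comparisons.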

How the data were processed

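RNA sequencing libraries of CA1 tissue, 10 in all, were placed in 5 groups of 2 by their labels. The deposited values are raw read counts of 32545 Ensembl genes of the rat, which the authors had neither normalized nor pooled. The counting program, its annotation and its use of strand are not given in the sources used here. The submitters' processing notes name STAR, RSEM, HISAT2, Salmon and GRCh38, while the methods name Rnor_6.0, mm10, TopHat2, Cufflinks and Cuffdiff, so reads of overlapping genes or near-identical copies are uncertain.

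Counts were tested in R 4.3.3 with edgeR 4.0.16. The filter filterByExpr by group kept 15032 genes. TMM factors were used in 1 quasi-likelihood fit of all 10 libraries without covariates, with Benjamini-Hochberg adjustment over all tested genes. A gene passed at an adjusted p under 0.05, and the count beyond a log2 fold change of 1.5 was also taken. The common biological coefficient of variation was 0.136. Log2 CPM used a prior count of 2. The 95% intervals are 1.96 standard errors to each side, an approximation that is narrower than the quasi-likelihood test would give. Alternatives were DESeq2 1.42.0, limma 3.58.1 on log2 CPM, RLE factors, other count filters, a replicate block, a fit of the 4 libraries compared and each library left out. The script was tested on simulated counts.

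The genes and lists were chosen with earlier results of these data known. Each gene is named with its 10 levels, and a pairwise fold change is given where its unadjusted p was under 0.05, for its largest of 8 changes, and for further pairs chosen after their values were seen. Each other list is represented by its 3 genes with the lowest p over the groups and by genes that passed. Some items are not reported here. P-values measure the spread between pools of slices. Promoter windows come from RefSeq, GRCr8.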

Additional observations from a re-analysis of the deposited data

How the results depend on the processing

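No gene of the 10 but Gadd45b passed in the main analysis, and the number passing depended on the filter. With no filter on low counts edgeR passed 8 of the 10 over the 5 groups, 2 in SKF+Aβ, 2 in the vehicle group, 5 in the TTK21 group and 6 in CSP-TTK21 alone against SKF. It also passed 1 in the TTK21 group against SKF+Aβ and 2 against the vehicle group. In that fit all genes shared 1 trend of spread, so the standard error of Npas4 in CSP-TTK21 alone against SKF went from 0.76 to 0.18 although its libraries lie over 3-fold apart. DESeq2 passed 1 over the 5 groups and 1 in the TTK21 group against SKF, Gadd45b in both. In SKF+Aβ against SKF, 0 passed in the fit of the 4 libraries, with the limit of 1.5 or at an unadjusted p with a log2 fold change beyond 1, and the last rule gave 2 in CSP-TTK21 alone against SKF. That rule called 2.88% and 1.28% of all genes in these comparisons. With a library left out, where a group of 1 library was assumed to vary like the others, 0 to 1 passed in SKF+Aβ and 0 to 1 in the TTK21 group against SKF, and 6 to 14 transcription factors were lower at an unadjusted p under 0.05 in CSP-TTK21 alone. Ptgs2 in CSP-TTK21 alone against SKF ran from -1.26 to 0.093, the last without SKF replicate 1 with an adjusted p of 0.980. Over all genes, the fit with no filter passed 1401 of 25251 over the 5 groups and 157 in CSP-TTK21 alone against SKF, 128 in the TTK21 group against SKF+Aβ and 307 against the vehicle group. In edgeR, DESeq2 and the fit with no filter, 312, 822 and 1311 passed in SKF+Aβ against SKF, 3, 452 and 754 in the vehicle group and 1, 355 and 902 in the TTK21 group. The 312 became 12 in the fit of the 4 libraries, 11 and 174 without SKF replicate 1 and 2, 1 and 13 without SKF+Aβ replicate 1 and 2, 26 without either vehicle library and 181 without CSP-TTK21 alone replicate 1. The 1 in the TTK21 group became 335 without SKF replicate 2.

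The replicate numbers of the labels were not taken to pair the libraries, since the differences between replicates correlated by -0.07 to 0.24 between groups and exceeded 0.1 in 4 of 10 pairs of groups. With the replicate block Gadd45b in SKF+Aβ against SKF had a log2 fold change of -0.73 with an adjusted p of 0.0310, and 0 of the 10 genes passed over the 5 groups. The block changed no call of the 10 genes. Over all genes it raised the number passing in the TTK21 group against SKF from 1 to 108.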
